A study of Mus musculus with 4 samples.

Results

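Innate pattern recognition was examined through 10 genes, taken by name from the gene counts of mouse lungs carrying 4T1 metastases. The genes are the Toll-like receptor (TLR) genes Tlr2, Tlr3, Tlr4, Tlr7, Tlr9 and Tlr13, the adaptor genes Myd88, Ticam1 and Mavs, and the inflammasome sensor gene Nlrp3, and they make up 10 of the 56748 genes counted. All 10 passed the filter on low counts that left 15167 genes for testing. Bulk RNA-seq was carried out on 2 libraries of the saline group and 2 of the cmLumiOpto/PARPi group. 4T1 is a mouse triple-negative breast cancer line, and its luciferase-labelled form was injected into the tail vein of 7-week-old female BALB/cJ mice. The saline mice had tumors without the vector or drug, and the labels of the same libraries also call them a PBS control. The treated mice received an exosome-associated AAV carrying the mitochondria-targeted luminoptogenetic construct and coupled to an anti-CD276 antibody, the luciferase substrate ViviRen, together with olaparib, a PARP inhibitor given at 50 mg/kg, and were harvested after 3 weeks. Vector and drug were given together in these libraries, so their parts cannot be told apart. The labels speak of tumor cells taken from the lung and the methods of lung tissue with metastasis. Keratin genes from a list of carcinoma markers and lung surfactant genes were both present in every library. Which cells the keratin reads came from was not tested. The labels do not say whether each library was 1 animal, so the spread between libraries may be partly technical.

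Pattern recognition receptors bind structures of microbes or of damaged cells. Surface TLRs meet lipoprotein (TLR2) and lipopolysaccharide (TLR4), while TLR3, TLR7, TLR9 and the rodent receptor TLR13 meet nucleic acids in endosomes. All of these signal through MyD88 except TLR3, which uses TRIF, the product of Ticam1. TLR4 uses both adaptors. MAVS sits on the mitochondrial outer membrane and carries the signal of the cytosolic RNA sensors RIG-I and MDA5, and NLRP3 assembles the inflammasome that activates caspase-1. In lung and tumors several of the receptor genes are read in macrophages, dendritic cells, neutrophils and B cells. Epithelial and carcinoma cells also transcribe some of the receptor and adaptor genes.

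The stretches of promoter below show which members carry sequences that myeloid, NF-kB or interferon factors are known to bind. Promoters of 8 of the 10 members were found in RefSeq (GRCm38.p6), with none for Tlr4 and Tlr7 and 2 entries for Nlrp3. In the 250 bases before each start, both strands were searched for 5 motifs, namely the PU.1 core GAGGAAG, the ISRE core (GAAA, any 2 bases, GAAA), the AP-1 site TGANTCA, the TATA box TATAAA and the NF-kB consensus. Capitals mark the match, and each line gives the build, the position and the strand. The NF-kB match of Tlr2 holds 2 overlapping matches.
Tlr2, NF-kB, GRCm38.p6 chr3:83841747-83841806, minus strand: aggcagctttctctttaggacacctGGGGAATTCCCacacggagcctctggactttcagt
Tlr3, NF-kB, GRCm38.p6 chr8:45410557-45410616, minus strand: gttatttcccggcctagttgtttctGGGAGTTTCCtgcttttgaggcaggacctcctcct
Nlrp3, NF-kB, GRCm38.p6 chr11:59541358-59541417, plus strand: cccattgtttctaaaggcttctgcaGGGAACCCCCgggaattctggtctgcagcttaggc
Tlr9, PU.1 core, GRCm38.p6 chr9:106222461-106222517, plus strand: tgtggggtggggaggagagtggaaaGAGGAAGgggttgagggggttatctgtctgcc
Tlr13, PU.1 core, GRCm38.p6 chrX:106143167-106143223, plus strand: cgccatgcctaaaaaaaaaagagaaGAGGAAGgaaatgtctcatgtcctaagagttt
Ticam1, PU.1 core, GRCm38.p6 chr17:56276768-56276822, minus strand: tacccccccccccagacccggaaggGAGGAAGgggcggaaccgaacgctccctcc
Myd88, ISRE core, GRCm38.p6 chr9:119340024-119340083, minus strand: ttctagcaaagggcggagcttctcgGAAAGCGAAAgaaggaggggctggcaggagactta

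The PU.1 core stood in the promoters of 4 members (Tlr9, Tlr13, Ticam1 and Nlrp3), and in 10.6% of the 32851 promoter entries of the genome. An NF-kB match stood in 3 (Tlr2, Tlr3 and Nlrp3), against 7.25% of all entries. The ISRE core was found in Myd88 alone among the members, 40 to 31 bases before the start, and in 2.98% of all entries. The AP-1 site stood in Tlr9 (6.75% of all entries). The letters of the TATA box stood in Myd88, 164 to 155 bases before the start (12.4% of all entries). Mavs held none of the 5 in this window. Members were counted by gene and the shares by promoter entry, so the figures are not on the same footing. In Nlrp3 the PU.1 and NF-kB matches lay in different entries. All of these are letter matches and not measured binding sites.

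None of the 10 genes differed between the cmLumiOpto/PARPi and saline groups at an adjusted p of 0.05 (edgeR's quasi-likelihood test, Benjamini-Hochberg over all 15167 genes). Their adjusted p ran from 0.333 for Myd88 to 0.999 for Nlrp3. No gene of the whole table passed either, so the share of all tested genes called was 0%. At an unadjusted p under 0.05 there were 0 members too, where 9.21% of all tested genes were higher and 12.0% lower. The members' log2 fold changes lay between -0.24 and 0.39 with a median of 0.05, beside 0.02 for all tested genes. Levels in all 4 libraries are given below in CPM, a gene's share of its library's counts after TMM scaling, on which 3 counts equal 0.173 to 0.204 CPM.

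**Figure D1:**
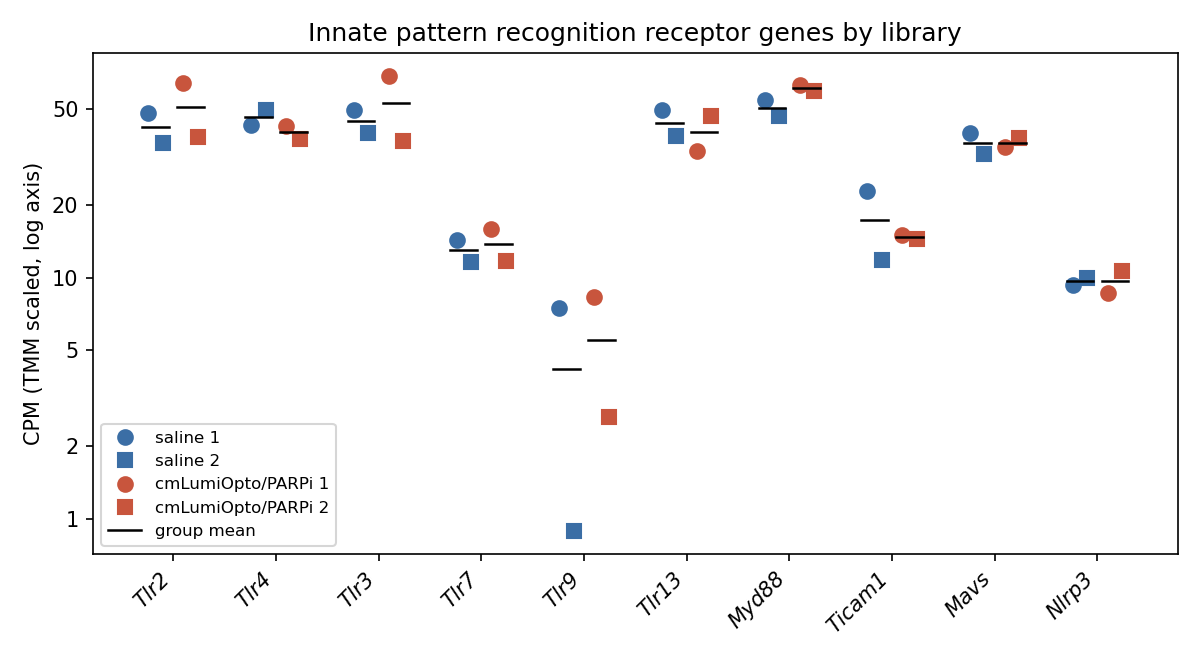
Level of each gene in CPM (log axis) in the 2 saline libraries (blue) and the 2 cmLumiOpto/PARPi libraries (red), circles for replicate 1, squares for replicate 2, and a line at each group mean (n = 2). The groups overlap in 8 of the 10 genes, beside 6801 of all 15167 tested genes, and Tlr9 spans from 0.886 to 8.35 CPM.

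Tlr2, the receptor gene for bacterial lipoproteins (ENSMUSG00000027995, chromosome 3 from 83743579 to 83749074 on the minus strand in mm39), had 48.4 and 36.3 CPM in the saline libraries and 64.0 and 38.4 CPM after cmLumiOpto/PARPi. Treated replicate 1 was the highest, and treated replicate 2 lay between the saline libraries. The log2 fold change was 0.27 (standard error 0.28, adjusted p = 0.608), with a 95% interval from 0.746-fold to 1.96-fold. Without treated replicate 1 it was -0.14.

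Tlr4, the lipopolysaccharide receptor gene (ENSMUSG00000039005, chromosome 4 from 66745821 to 66848521, plus strand), had 43.0 and 49.7 CPM in saline and 42.7 and 37.6 CPM after treatment. Both treated libraries were below both saline libraries, the nearest pair being 43.0 and 42.7 CPM. Its log2 fold change was -0.21 (standard error 0.16, adjusted p = 0.481), and its interval ran from 0.659-fold to 1.14-fold. It shares 1557 bases with a long noncoding RNA gene on the same strand that had 145 to 188 counts per library, beside 625 to 741 for Tlr4, so reads of that stretch are uncertain.

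For Tlr3, Tlr7, Tlr13 and Tlr9, whose receptors are endosomal, the groups overlapped. Tlr3, the sensor gene for double-stranded RNA (ENSMUSG00000031639, chromosome 8 from 45848702 to 45864117, minus strand), had 49.5 and 39.9 CPM in saline and 68.9 and 37.0 CPM after treatment. The highest and the lowest of the 4 values were both treated libraries. Its log2 fold change was 0.24 (standard error 0.31, adjusted p = 0.677), and -0.27 without treated replicate 1.

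Tlr7, a receptor gene for single-stranded RNA (ENSMUSG00000044583, chromosome X from 166087925 to 166113554, minus strand), had 14.4 and 11.6 CPM in saline and 15.9 and 11.7 CPM after treatment. Saline replicate 1 stood between the treated libraries. In log2 units the difference was 0.09 (standard error 0.26, adjusted p = 0.869), with an interval from 0.680-fold to 1.67-fold. Without treated replicate 1 it was -0.15 and without saline replicate 2 it was -0.07.

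Tlr13, the receptor gene for bacterial ribosomal RNA (ENSMUSG00000033777, chromosome X from 105186810 to 105204099, plus strand), had 49.5 and 38.6 CPM in saline and 33.7 and 46.7 CPM after treatment. Here treated replicate 1, which was the highest library for Tlr3, Tlr7 and Tlr9, was the lowest. On the log2 scale the fold change was -0.13 (standard error 0.22, adjusted p = 0.757), and 0.08 without treated replicate 1 and 0.04 without saline replicate 1.

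Tlr9, the receptor gene for unmethylated CpG DNA (ENSMUSG00000045322, chromosome 9 from 106099797 to 106104082, plus strand), varied most among libraries. It had 7.46 and 0.886 CPM in saline, from 119 and 13 counts, and 8.35 and 2.65 CPM after treatment, from 145 and 44 counts. The saline libraries differed 8.42-fold and the treated libraries 3.15-fold, while the group means differed 1.32-fold. The fitted value, 0.39 in log2 units, had a standard error of 0.98 (adjusted p = 0.843). With this spread and number of libraries, the interval from 0.248-fold to 6.96-fold left the size of the change undetermined. Without saline replicate 2 it was -0.46, without treated replicate 1 it was -0.67, and without saline replicate 1 it was 2.61, none past an adjusted p of 0.05.

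Tlr9 was highest in treated replicate 1 and lowest in saline replicate 2, and so was the summed level of 10 of the 14 marker lists of leukocytes, lung and carcinoma cells. Among them were those of plasmacytoid dendritic cells, which read Tlr9. A sum follows its most abundant gene, which for macrophages and monocytes was Lyz2. Of that list, Fcgr1 had the same order, but Csf1r was highest in saline replicate 1, and Itgam and Mertk in saline replicate 2. Plasmacytoid dendritic cell markers (Siglech, Ccr9 and Klk1) summed to 2.07 and 0 CPM in saline, all 3 at 0 in saline replicate 2, and to 6.28 and 2.23 CPM after treatment. Of these markers 2 of 3, and 27.4% of all tested genes, had both treated libraries above both saline libraries, which Tlr9 did not. Their part in the Tlr9 values was not tested. In bulk tissue fewer cells of a type and less RNA per cell cannot be told apart.

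**Figure D2:**
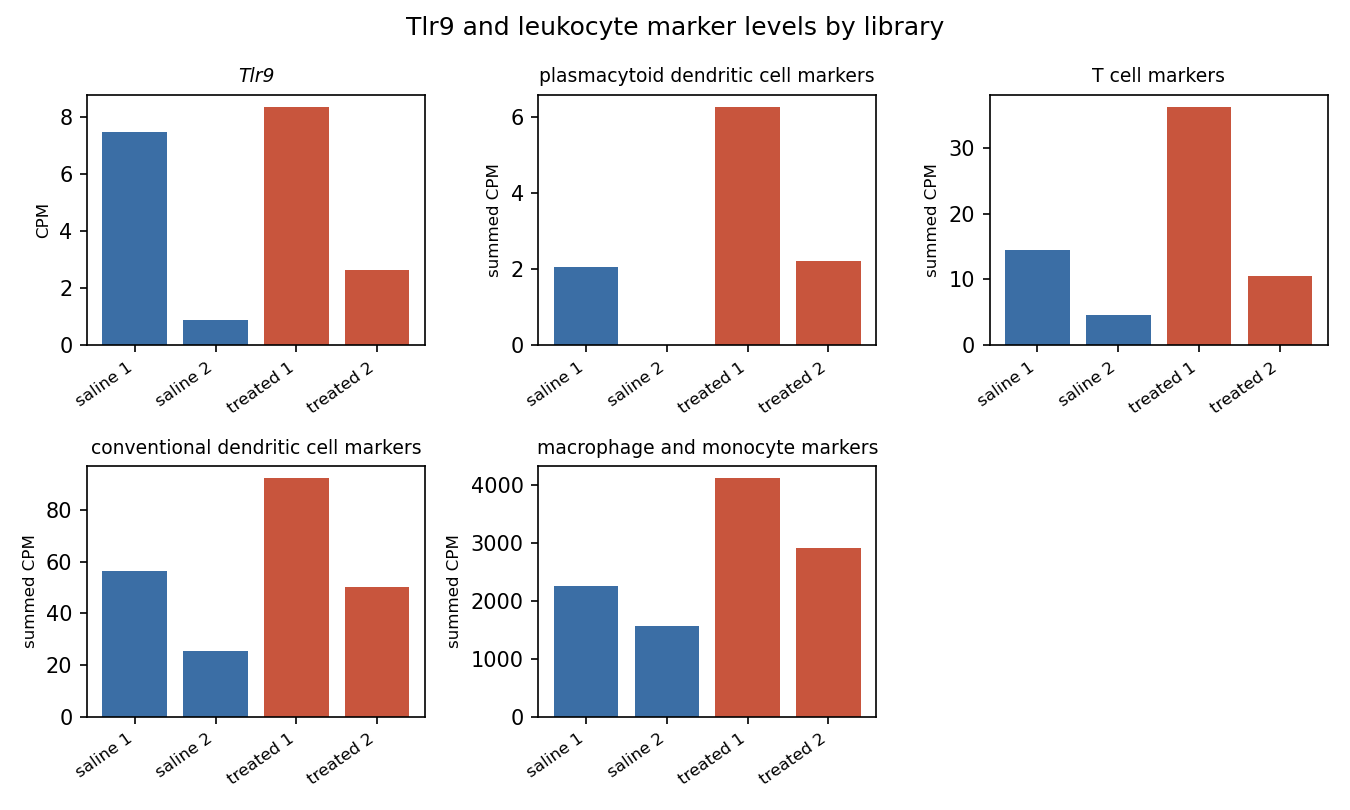
Level of Tlr9 (CPM) and summed level of 4 lists of leukocyte markers (summed CPM) in each of the 4 libraries, each panel with its own axis from 0. Saline replicate 2 is the lowest library in all 5 panels, with 0.886 CPM of Tlr9 and 0 CPM of plasmacytoid dendritic cell markers. The 4 lists are among the 10 of 14 that, like Tlr9, were highest in treated replicate 1 and lowest in saline replicate 2. For the plasmacytoid dendritic cell and the macrophage and monocyte sums, treated replicate 2 was above saline replicate 1. For Tlr9 it was below. The alveolar macrophage sum, not shown, was highest in saline replicate 2.

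Among the adaptor genes, Myd88 gave the smallest p of the 10. The gene (ENSMUSG00000032508, chromosome 9 from 119165000 to 119170477, minus strand) had 54.6 and 46.8 CPM in saline and 62.9 and 59.6 CPM after treatment, or 50.7 ± 5.48 and 61.3 ± 2.33 CPM (SD, n = 2). It was the only member with both treated libraries above both saline libraries, as 27.4% of all tested genes were, and Tlr4 the only member with both below, as 27.8% were. For Myd88 the log2 fold change was 0.27 (standard error 0.15, adjusted p = 0.333) with an interval from 0.939-fold to 1.56-fold, and it was 0.03 after the trend of fold change with gene length was removed. Myd88 lies within Slc22a14, which had 0 to 3 counts, and shares 1736 bases with Acaa1a on the opposite strand, which had 1199 and 1099 counts in saline and 1537 and 1464 after treatment. The labels leave it unstated whether the libraries kept the strand, so reads of the shared stretch cannot be assigned.

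Ticam1, the gene of the adaptor TRIF (ENSMUSG00000047123, chromosome 17 from 56576319 to 56583786, minus strand), had 22.8 and 11.8 CPM in saline and 15.0 and 14.4 CPM after treatment. Both treated libraries lay between the saline libraries, which differed 1.94-fold. As a log2 fold change this was -0.24 (standard error 0.34, adjusted p = 0.718), and it turned to 0.30 without saline replicate 1.

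Mavs, the adaptor gene of the cytosolic RNA sensors (ENSMUSG00000037523, chromosome 2 from 131075983 to 131089945, plus strand), had 39.8 and 32.6 CPM in saline and 34.8 and 38.0 CPM after treatment. Its group means were nearly equal, at 36.2 ± 5.03 and 36.4 ± 2.26 CPM (SD, n = 2). The log2 fold change was 0.01 (standard error 0.17, adjusted p = 0.988), with an interval from 0.750-fold to 1.35-fold, and its sign depended on the library left out (-0.14 without saline replicate 2, -0.08 without treated replicate 2).

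Nlrp3, the inflammasome sensor gene (ENSMUSG00000032691, chromosome 11 from 59432394 to 59457782, plus strand), had 9.34 and 9.95 CPM in saline and 8.64 and 10.6 CPM after treatment. Both saline libraries lay between the treated libraries, and the group means were 9.65 and 9.64 CPM. The interval of the difference was 0.648-fold to 1.54-fold (adjusted p = 0.999), and the sign of the fold change turned with the normalization. It was 0.14 on the log2 scale without treated replicate 1.

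For 7 of the 10 genes (Tlr2, Tlr4, Tlr7, Tlr13, Myd88, Mavs and Nlrp3) a change of 2-fold in either direction lay outside the 95% interval. For Tlr3, Ticam1 and Tlr9 it did not. The fold between the treated libraries exceeded the fold between group means in 7 genes, and the fold between the saline libraries did so in 9. These counts were not made over all tested genes, so they show nothing particular to the members.

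**Figure D3:**
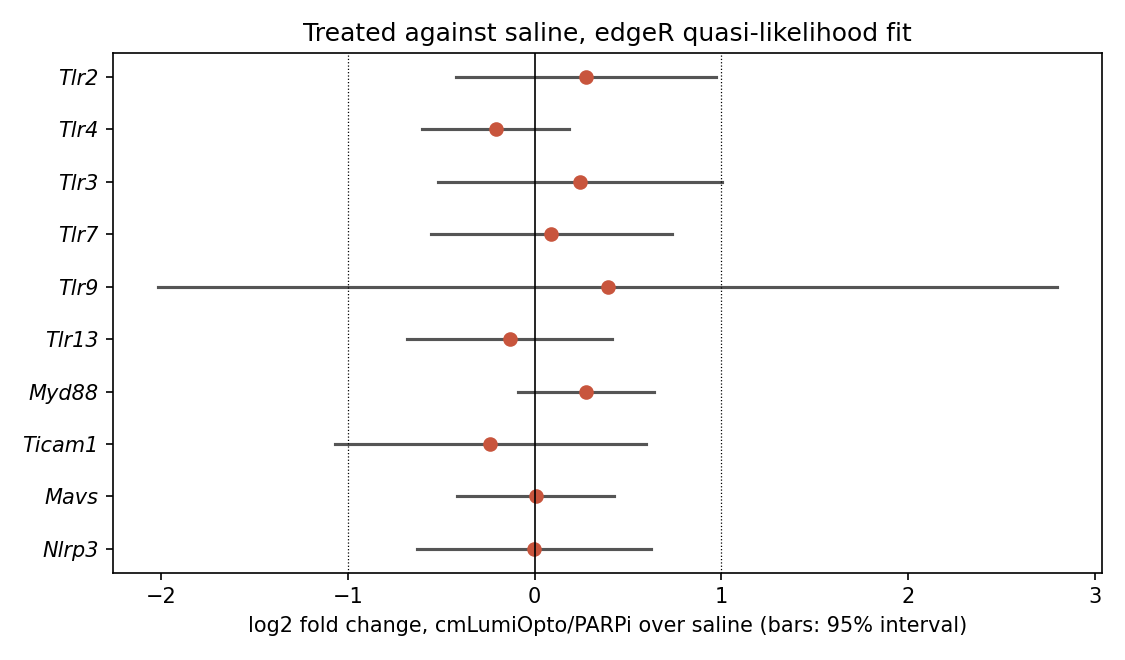
Log2 fold change of each gene, cmLumiOpto/PARPi over saline, from edgeR's quasi-likelihood fit, with bars for the 95% interval and dotted lines at a 2-fold change in either direction. All 10 intervals include 0, and that of Tlr9 reaches from -2.01 to 2.80.

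Per gene length, in TPM over all 4 libraries, Myd88 was the most abundant at 62.5 ± 5.08 TPM (SD, n = 4), followed by Tlr2 at 44.6 ± 11.0 TPM. Mavs (31.4 TPM), Tlr13 (28.4 TPM), Tlr3 (27.0 TPM), Tlr4 (22.6 TPM) and Ticam1 (15.5 TPM) came next, each with a range over libraries that overlapped that of its neighbor. Ticam1, from 12.0 to 23.2 TPM, stood clear of Tlr7, from 7.84 to 10.7 TPM, which stood clear of Nlrp3, from 5.84 to 7.46 TPM. Tlr9 was the least abundant at 3.99 ± 3.01 TPM, and its range overlapped that of Nlrp3. For every other pair of neighbors the ranges over the 4 libraries overlapped, though within each library Myd88 was above Tlr2 and Tlr2 above Mavs.

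**Figure D4:**
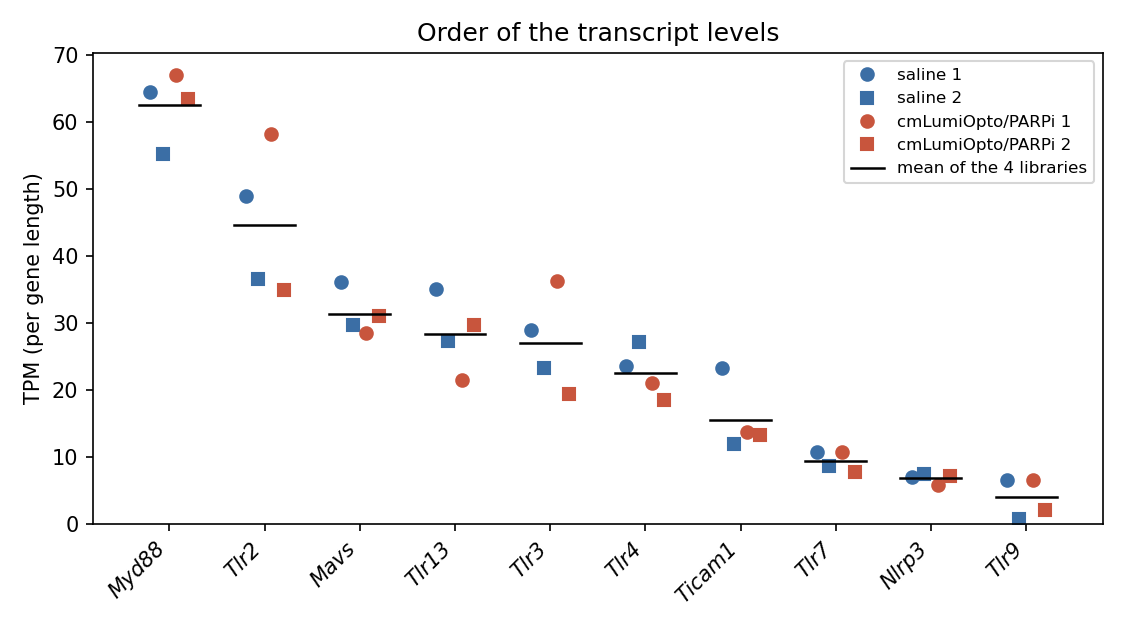
Level of each gene in TPM, which divides by gene length, in the 4 libraries, ordered by the mean of all 4 (line), with saline in blue and cmLumiOpto/PARPi in red. Myd88 leads at 62.5 TPM, and Tlr7 is separated from both of its neighbors, Ticam1 and Nlrp3.

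Markers of leukocytes and lung cells also differed between libraries. Among all tested genes, 27.4% had both treated libraries above both saline libraries and 27.8% had both below. Ptprc, the pan-leukocyte gene CD45, had 70.1 and 48.4 CPM in saline and 116 and 64.1 CPM after treatment. The 7 macrophage and monocyte markers summed to 2258 and 1567 CPM in saline and to 4111 and 2905 CPM after treatment, of which 2 were above, 1 was below and 4 overlapped. Most of the sum was Lyz2, which had 1693 and 1141 CPM against 3619 and 2441 CPM. Adgre1, the gene of F4/80, overlapped between groups (46.6 and 36.0 against 55.8 and 35.3 CPM). Of the 7 neutrophil markers 1 was above, 1 was below and 5 overlapped, with sums of 1160 and 540.0 CPM against 761 and 1463 CPM. Airway epithelial markers summed to 1153 and 81.1 CPM against 5688 and 2983 CPM, all 4 higher in both treated libraries. The 3 fibroblast markers were all lower in both treated libraries, with sums of 2402 and 1712 CPM against 678 and 778 CPM. Of the 5 alveolar macrophage markers 2 (Ear2 and Car4) were above and 3 (Siglecf, Chil3 and Pparg) overlapped. They summed to 134 and 439 CPM against 129 and 150 CPM, the highest sum being that of saline replicate 2. Most of that sum was Chil3, with 116 and 423 CPM against 76.2 and 124 CPM. The part of these cell types in the receptor values was not tested.

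The other genes of the pathway, 120 in 8 lists, were read from the same fit. None passed an adjusted p of 0.05, and 17 had an unadjusted p under 0.05. Each list is described by its counts and its median, to be set beside 9.21% higher, 12.0% lower and a median log2 fold change of 0.02 among all tested genes. The 10 receptor, adaptor and Nlrp3 genes had 0 higher, 0 lower and a median of 0.05.

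Of the other TLR genes 4 overlapped between groups. Tlr8 and Tlr5 had both treated libraries below both saline libraries, as did 27.8% of all tested genes. All 6 were tested and none had an unadjusted p under 0.05, with a median of 0.25 that turned to -0.52 without treated replicate 1 and to -0.17 without saline replicate 2, and was 0.71 without saline replicate 1. Tlr8, an endosomal RNA receptor gene, had 16.1 and 13.3 CPM in saline and 12.0 and 8.66 CPM after treatment (log2 fold change -0.51, adjusted p = 0.321). Tlr5, the flagellin receptor gene, had 4.33 and 4.36 against 3.17 and 3.61 CPM (-0.36, adjusted p = 0.579). Tlr1, a partner of TLR2, had 17.1 and 6.27 against 20.6 and 13.6 CPM (0.55, adjusted p = 0.551). Tlr12, a receptor gene for profilin, had 7.40 and 1.29 against 14.7 and 1.50 CPM, so that replicate 1 was the higher library in both groups, as for Tlr9.

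Of the co-receptors, trafficking factors and other adaptors, 11 of 12 were tested, 0 higher and 1 lower at an unadjusted p under 0.05, with a median of 0.20, or -0.02 without treated replicate 1. The gene of the lower one, Tirap, which bridges TLR2 and TLR4 to MyD88, had 36.6 and 44.8 CPM in saline and 24.9 and 30.4 CPM after treatment (log2 fold change -0.56, standard error 0.19, adjusted p = 0.193). Cd14, which hands lipopolysaccharide to TLR4, had 64.8 and 79.6 CPM against 60.2 and 79.7 CPM. Cd36, a scavenger receptor gene, had 46.5 and 12.6 CPM against 141 and 40.8 CPM (1.62, adjusted p = 0.283). For Ly86 it was 0.64 (adjusted p = 0.394).

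The signalling kinases and transcription factors leaned the other way. Of 21 tested, 1 was higher and 5 were lower at an unadjusted p under 0.05, with a median of -0.19. After the length trend was removed 1 was higher and 6 were lower, with a median of -0.06 beside -0.06 for all tested genes. Traf6, the ubiquitin ligase gene downstream of MyD88, had 50.7 and 64.4 CPM in saline and 27.6 and 29.4 CPM after treatment (log2 fold change -1.01, standard error 0.17, adjusted p = 0.138). Tab3, whose product joins TAK1 to ubiquitin chains, had 38.8 and 48.0 CPM against 22.2 and 23.8 CPM (-0.92, standard error 0.18, adjusted p = 0.138). In both genes the treated libraries lay close together and well below the saline libraries. DESeq2 called both (adjusted p = 0.00164 and 0.00718), among 1011 called of all 15167 tested genes. Both genes are long, at 7883 and 6639 bases, beside a median of 4127 for all tested genes. Over all tested genes the fold change fell with gene length (Spearman rho = -0.373). The part of gene length in the lower Traf6 and Tab3 values was not tested. Irf3, the interferon factor gene downstream of TRIF and MAVS, had 29.6 and 23.2 CPM against 45.7 and 38.4 CPM (0.67, standard error 0.19, adjusted p = 0.163). For the kinase gene Irak4 it was 0.38 (adjusted p = 0.300).

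Of the 10 cytosolic nucleic acid sensors, 9 had a positive log2 fold change (median 0.24), beside 7881 of all 15167 tested genes. At an unadjusted p under 0.05, 1 was higher and 0 were lower. The median was -0.17 without treated replicate 1 and 0.03 without saline replicate 2. Aim2, which binds cytosolic DNA, had 6.40 and 5.04 CPM in saline and 13.0 and 7.94 CPM after treatment (0.87, standard error 0.35, adjusted p = 0.231). On the same scale Ifi204 was at 0.24 (adjusted p = 0.469) and Eif2ak2, the RNA-activated kinase gene PKR, at -0.09 (adjusted p = 0.829). Of the other NLR and inflammasome genes, 20 of 23 were tested, with 1 higher, 0 lower and a median of 0.19. That gene was Il1b, the cytokine that the inflammasome matures, with 24.4 and 13.4 CPM against 44.4 and 26.8 CPM (0.91, standard error 0.37, adjusted p = 0.233), and 0.59 after the length trend was removed. Nod2, a sensor gene of bacterial cell wall peptides, had 6.33 and 4.84 against 10.2 and 7.88 CPM (0.69, adjusted p = 0.264). Nek7, the partner of NLRP3, had 233 and 284 against 193 and 229 CPM (-0.29, adjusted p = 0.365), and Naip6, whose reads may be shared with its paralogs, was at -0.52 (adjusted p = 0.523).

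The lectin, scavenger and formyl peptide receptors had the widest spread. Of 18, 16 were tested, 4 higher and 1 lower at an unadjusted p under 0.05, with a median of 0.56. Without the length trend the counts turned to 1 higher and 2 lower, and the median was 0.28, beside -0.06 for all tested genes. Sftpd, the lung collectin gene of alveolar type 2 cells, had 54.0 and 20.7 CPM in saline and 256 and 93.2 CPM after treatment (2.22, standard error 0.61, adjusted p = 0.156). Of the 4 alveolar type 2 markers, 3 had both treated libraries above both saline libraries and 1 had both below, and they summed to 1391 and 361 CPM against 7066 and 2517 CPM. Clec4n, the gene of Dectin-2, had 45.8 and 29.2 CPM against 64.7 and 65.9 CPM (0.80, adjusted p = 0.162). Mrc1, the macrophage mannose receptor gene, had 212 and 396 CPM against 137 and 154 CPM (-1.06, standard error 0.30, adjusted p = 0.158), and Fcna 13.2 and 49.1 against 7.66 and 16.9 CPM.

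Of the 17 output genes that TLR signaling induces, 15 were tested. A positive log2 fold change was found in 13 of them, beside 7881 of all 15167 tested genes. Their median was 0.58, or 0.38 without the length trend (-0.06 for all tested genes), and none had an unadjusted p under 0.05. Cxcl10, an interferon-induced chemokine gene, had 15.7 and 8.11 CPM in saline and 56.8 and 15.2 CPM after treatment (1.59, standard error 0.65, adjusted p = 0.235). Ccl3 had 2.63 and 1.16 against 3.86 and 4.99 CPM (1.21, adjusted p = 0.247). Nos2, the inducible nitric oxide synthase gene, had 73.1 and 31.4 against 33.3 and 36.8 CPM (-0.58, adjusted p = 0.417), and Nfkbiz was at -0.12 (adjusted p = 0.838). Of the 13 negative regulators 2 were higher and 1 was lower at an unadjusted p under 0.05 (median -0.11). Atf3, a repressor of TLR-induced cytokine genes, had 8.91 and 7.15 CPM against 21.5 and 16.2 CPM (1.23, standard error 0.26, adjusted p = 0.138, and 0.00792 by DESeq2). Sigirr, an inhibitory receptor gene, had 36.9 and 39.0 against 49.5 and 51.2 CPM (0.41, adjusted p = 0.193). Tnfaip3, the gene of A20, was at -0.40 (adjusted p = 0.208), both treated libraries being below both saline libraries, and Rnf216 was at -0.31 (adjusted p = 0.254).

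**Figure D5:**
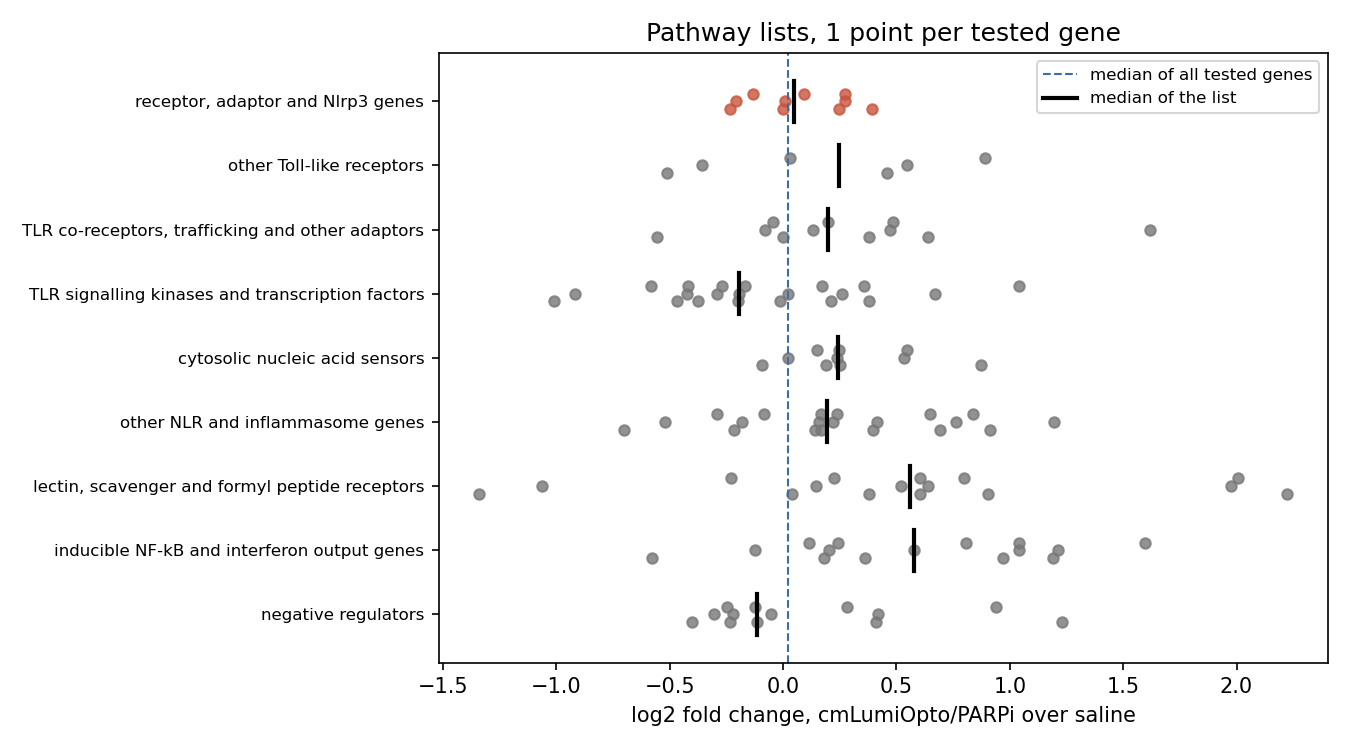
Log2 fold change of every tested gene, cmLumiOpto/PARPi over saline, in the 10 receptor, adaptor and Nlrp3 genes (red) and the 8 pathway lists (gray), with the median of each list (black line) and of all tested genes (dashed line, 0.02). The red points stay between -0.24 and 0.39, while the lectin and scavenger receptors reach from -1.34 to 2.22.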

How the data were processed

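The authors mapped the reads with HISAT2 and deposited a table of raw counts, without normalization, that also lists gene positions and lengths. The counting tool is not given in the sources used here. The labels name mm39 and the methods GRCm38. None of the 10 members had its GRCm38 position (GENCODE M21) in the table, so the printed gene positions, as deposited, are given as mm39. Totals were 15263375 to 16755228 counts per library. Counts were fitted with edgeR 4.0.16 (TMM, filterByExpr with a minimum count of 10, glmQLFit with its default legacy option, glmQLFTest, threshold 0.05), with the standard error taken as the log2 fold change over the root of F. The 95% intervals use that error and the fit's degrees of freedom. With 2 libraries against 2, an exact two-sided permutation test cannot give a p below 0.333. No pair of replicates was 1 library deposited again, since their counts differed beyond sampling (chi-square per degree of freedom 24.1 for saline, 41.1 for treated). The 3-count floor covers counting error only. Members and lists were chosen with earlier results of these data known. Named genes are the members and, from each list, the 2 with the smallest p in each direction. The fits were tested on simulated data. DESeq2 1.42.0, other normalizations and filters, a replicate block, a length-trend offset (loess, span 0.5) and leaving out each library were alternatives.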

Additional observations from a re-analysis of the deposited data

How the results depend on the processing

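The number of members called was 0 under all 12 alternatives. The number of genes called over the whole table, 0 in the fit reported, was 2000 with no filter on low counts, 1011 by DESeq2, 1822 with the replicate block, and 0 to 31 when a library was left out. For the pathway lists the count was 23 with no filter, 6 by DESeq2 (Atf3, Clec4n, Mrc1, Tab3, Traf3 and Traf6) and 19 with the replicate block, and 0 without any 1 library. The cause was not tested. Replicate numbers come from the labels and mark no shared animal. Same-numbered libraries deviated together across genes (rho = 0.298 over genes, which are no replicates of each other). With a library left out, a group of 1 is assumed to vary like the other. The median log2 fold change of the members then ran from -0.15 (without treated replicate 1) to 0.27 (without saline replicate 1). Single members ran from -0.14 to 0.57 (Tlr2), -0.27 to 0.60 (Tlr3), -0.15 to 0.28 (Tlr7), -0.67 to 2.61 (Tlr9), -0.41 to 0.082 (Tlr13), -0.65 to 0.30 (Ticam1), -0.14 to 0.14 (Mavs) and -0.18 to 0.14 (Nlrp3). Of the other genes, Tlr1 ran from -0.0178 to 1.43, Tlr12 ran from -1.53 to 2.62, Cd14 ran from -0.28 to 0.14, Eif2ak2 ran from -0.40 to 0.14, Nos2 ran from -1.08 to 0.14 and Nfkbiz ran from -0.42 to 0.20. Mavs was -0.0029 with no filter and -0.15 with the length trend removed. Nlrp3 was 0.0022 by RLE normalization and by DESeq2, 0.064 by library totals and 0.0051 with the CPM filter, and Cd14 was 0.0199 by library totals. Tlr4 and Myd88 kept their sign under every alternative run. Tlr9, at 13 to 145 counts per library, had the largest standard error of the members (0.98). Nlrp3, at 146 to 177 counts, had 0.25.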

Other observations

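Of the 120 pathway genes, 8 were too low for the test (Sarm1, Nlrp1a, Nlrp6, Nlrp10, Cd209a, Mbl2, Ifnb1 and Il12b), and the genes given next were picked after their values were seen. Il12b, a subunit gene of the cytokine IL-12 that dendritic cells make after TLR stimulation, was counted 1 and 0 times in saline and 25 and 3 times after cmLumiOpto/PARPi. Cd209a, a lectin receptor gene of dendritic cells, had 3 and 0 counts against 28 and 7. Ifnb1, the interferon beta gene that TRIF and MAVS signaling induces, had 0 counts in both saline libraries and 2 and 1 counts after treatment, at or under the floor of 3 counts. In the first 2 of these treated replicate 1 was the highest library, as it was for Ptprc and for the summed conventional dendritic cell markers. Those sums were 56.2 and 25.4 CPM in saline and 92.3 and 50.1 CPM after treatment, with Itgax alone at 38.8 and 11.7 against 68.0 and 37.2 CPM. Of the 4 markers, 0 were above, 1 (Zbtb46) was below and 3 overlapped.

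Tlr11 and Tlr12, which are expressed in mouse dendritic cells and macrophages, differed more between the replicates of a group than between groups. Tlr11 had 1.25 and 0.204 CPM in saline and 1.84 and 0.181 CPM after treatment, the lower value of each group being 3 counts. The log2 fold change of Tlr12 was 0.89 with a standard error of 1.14 (adjusted p = 0.683).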
